A study of Mus musculus with 39 samples.

Results

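The genes described here are 38 integrins and focal adhesion genes, chosen by their symbols from the 55357 genes listed in each of the lung and colon expression tables. They comprise 20 integrin subunits and 18 genes for the proteins that gather on the inner face of integrins. All 38 were found in both tables. The libraries were made from C57BL/6N mice of 4 kinds, with lung and colon tables for each kind. The first kind were Cd177 KO mice with acute pancreatitis (AP), with 5 lung libraries and 4 colon libraries. The others were wild-type (WT) mice with AP, Cd177 KO mice after a sham operation and WT mice after a sham operation, with 5 libraries in each tissue. Cd177 encodes a surface protein of neutrophils, and AP, inflammation of the pancreas, can harm organs far from it. The sources used here do not give the method that induced AP, the time of sampling or the design of the KO allele. They do not say either whether each library came from its own animal, so every p-value below measures the spread between libraries. The title of the study names lung injury and the colonic barrier in AP after Cd177 deletion as its subject.

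Integrins are pairs of an alpha and a beta subunit that span the cell membrane and hold cells to the extracellular matrix or to other cells. The pair determines the ligand: laminin and collagen of basement membranes, proteins with the RGD motif such as fibronectin, or counter-receptors on other cells, which leukocyte integrins bind when blood cells leave a vessel. Inside the cell, talins and kindlins switch integrins on, vinculin, alpha-actinins and tensins tie them to actin, and focal adhesion kinase, Src and their scaffolds relay signals. In lung and gut, these adhesions anchor the epithelium and endothelium whose barrier function is lost in organ injury.

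Cd177 was listed at 0 FPKM in every KO library, between 1.3 and 4.18 FPKM in WT lung and between 38.5 and 76.4 FPKM in WT colon. FPKM is the authors' unit, fragments scaled to transcript length and library total. Library totals recovered from the steps of the values were 77.0 to 95.4 M reads (M, mega) in KO lung, against 57.9 to 71.2 M in WT lung, and 77.7 to 98.6 M in KO colon, against 55.6 to 78.3 M in WT colon. Within each treatment the colon totals did not overlap either. They were 78.5 to 98.6 M in KO and 65.4 to 78.3 M in WT with AP, and 77.7 to 91.2 M and 55.6 to 76.6 M after sham. Genotype and depth therefore moved together in both tissues and cannot be told apart. The mean correlation of a library with its own group was 0.929 to 0.962 in KO lung and 0.968 to 0.988 in WT lung, and 0.934 to 0.954 in KO colon and 0.942 to 0.975 in WT colon. Summed over 8 lung genes, the lung-defining markers lay between 38388 and 154534 FPKM in lung and between 17.4 and 47.5 FPKM in colon, where Nkx2-1 was at 0 in every library. The colon-defining markers summed to between 2355 and 9099 FPKM in colon and to between 44.5 and 159 FPKM in lung, nearly all of it Car4, which lung vessels also express.

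Of the 38 genes, 37 in each tissue reached 1 FPKM in at least 4 libraries and were tested. Itgb8 stayed between 0.0453 and 0.216 FPKM in lung and between 0.0499 and 0.234 FPKM in colon and was not tested. The test was limma on log2(FPKM + 1) with Benjamini-Hochberg adjustment over all genes tested, and a gene counts as higher or lower below where its adjusted p was under 0.05. Log2 differences are given ± standard error and are on that scale, which compresses the change of a gene with low FPKM. Means are given ± SD, with n = 5 libraries in each group except 4 in KO colon with AP, whose replicates are numbered 1, 3, 4 and 5. Values by library follow the replicate number.

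In the lung, 23 of the 37 genes were lower and 2 higher in KO than in WT with AP, and 23 were lower and 2 higher in KO than in WT after sham. Over all genes tested, 28.1% were lower and 27.6% higher with AP, and 30.0% were lower and 28.8% higher after sham. The median log2 difference of the 37 genes was -0.74 with AP, against 0.0042 over all 15978 genes, and -0.59 after sham, against -0.011 over all genes. The KO libraries lay entirely below the WT libraries for 20 genes with AP and for 18 after sham, which was so for 18.7% and 22.5% of all genes. They lay entirely above for 2 genes with AP and 1 after sham, which was so for 19.3% of all genes each time. In the colon, 7 genes were lower and 1 higher in KO with AP, and 10 were lower and 2 higher after sham. The shares over all 15001 colon genes were 10.9% lower and 7.37% higher with AP, and 15.4% lower and 16.0% higher after sham. The colon groups did not overlap for 7 genes with AP, all lower in KO, and for 3 after sham, all lower. Over all colon genes 8.61% were entirely lower and 6.76% entirely higher with AP, and 8.15% and 9.13% after sham. The colon medians were -0.30 with AP and -0.21 after sham, against -0.011 and 0.011 over all colon genes. The 8 colon genes with AP were 5 without WT AP replicate 2 or without WT AP replicate 3, and 12 without WT AP replicate 4. The shares over all genes in those fits are not given here, so these counts describe the members alone.

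In the lung 25 members passed with AP, where 55.8% of all genes did, and 25 after sham, where 58.8% did. Of these, 20 were the same, 80% of each, 19 lower in both and Itgb4 higher in both. With AP, the others were Itga7, Itgax, Itgb7, Lims1 and Fermt3. After sham, they were Itgb6, Pxn, Ilk, Actn1 and Bcar1. Itga5, Itgav, Itgae, Ptk2, Zyx, Vasp and Src passed in neither. In the colon 8 passed with AP and 12 after sham, with 18.3% and 31.4% of all genes. Itga4, Itgal, Itgax, Itgb7, Fermt3 and Pxn were lower in KO in both, 75% of the genes that passed with AP and 50% of those that passed after sham. The same overlap was not counted over all genes in either tissue, so these shares do not set the members apart from other genes. No difference between the AP and sham results passed the test, as given with the AP responses further on.

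Some of these calls lay near the threshold. With no filter on low values, which raises the number of genes adjusted over, Itgb7 in lung with AP no longer passed (adjusted p = 0.0531), nor did Pxn, Actn1, Ilk and Bcar1 in lung after sham (adjusted p = 0.0599, 0.0588, 0.0966 and 0.0511). In the colon the same held for Itga7 and Itgax with AP (0.0704 and 0.063) and for Itgb7, Itga5 and Fermt3 after sham (0.103, 0.053 and 0.0718). With only the groups compared in the fit, Pxn, Actn1 and Bcar1 in lung after sham no longer passed (adjusted p = 0.0894, 0.0649 and 0.082). In the colon this held for Itga7 and Itgax with AP (0.0849 and 0.0511) and for Itgb7, Itga5 and Src after sham (0.072, 0.0529 and 0.0721). Without the libraries of low correlation (under 0.94 with their group), Actn1 in lung after sham (0.11), Itga4 and Itgax in colon with AP (0.071 and 0.199) and Itga5 in colon after sham (0.0621) did not pass. With upper quartile scaling, Ptk2 and Itga5 in colon after sham did not pass (0.0572 and 0.0514).

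**Figure D1:**
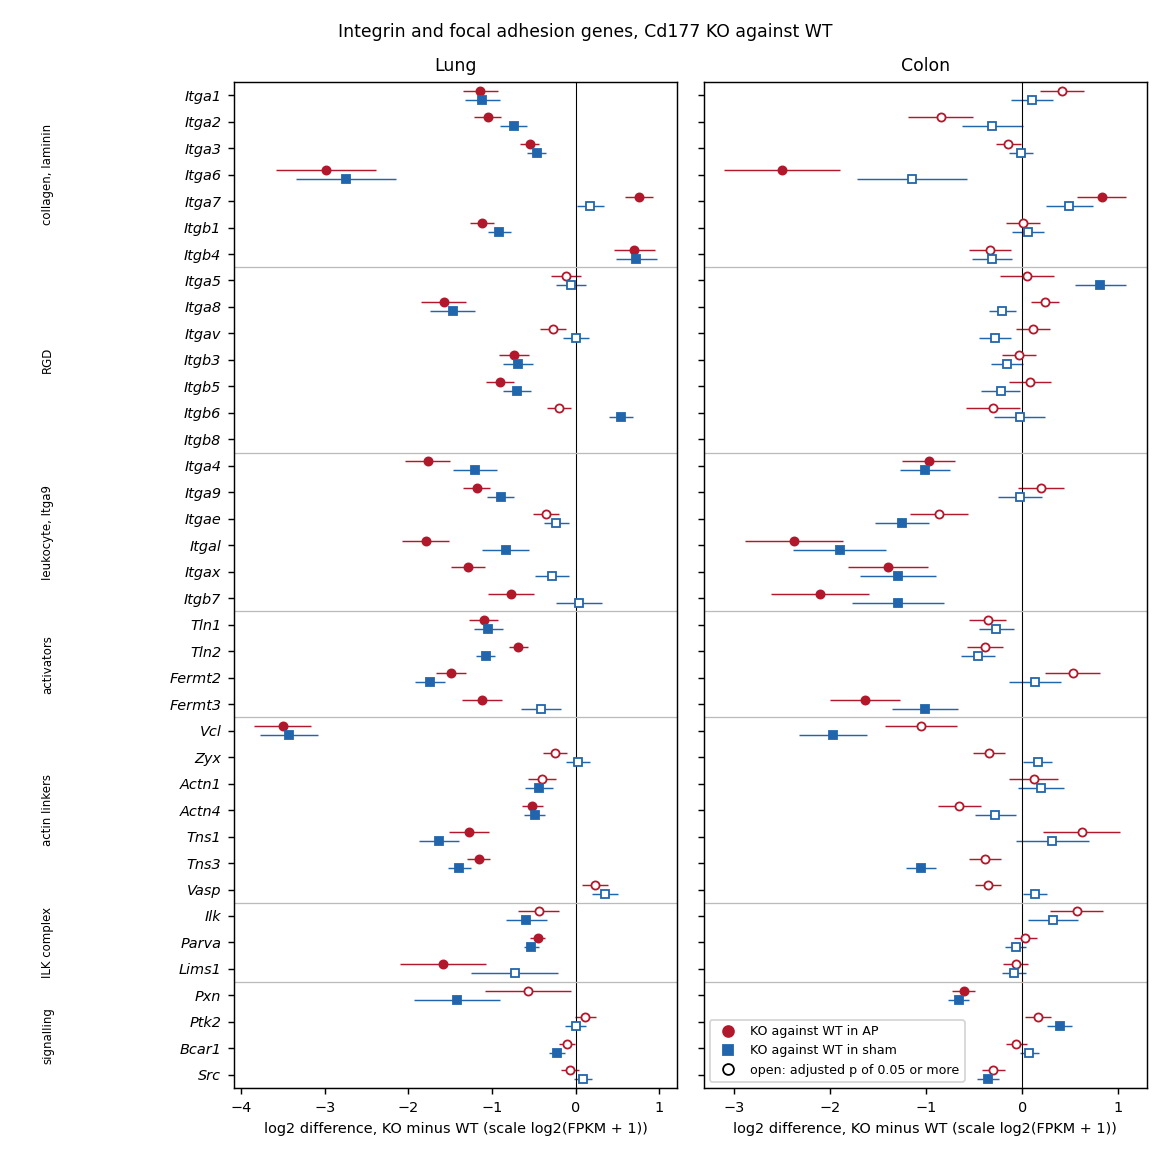
Log2 difference between KO and WT libraries (log2(FPKM + 1), horizontal axis, ± standard error) for each gene tested, grouped by role, with lung left and colon right. Circles are the comparison with AP and squares that after sham, and open symbols did not pass an adjusted p of 0.05. Most lung symbols lie left of 0, with Vcl farthest at -3.5 with AP, while the colon symbols to the left of -1 are mostly leukocyte genes.

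The gene with the highest lung mean among the WT libraries was Tns1, at 281.5 FPKM with AP and 341.2 FPKM after sham, followed by Itgb1, and both headed the KO lung order too. In the colon, Actn4, the alpha-actinin of non-muscle cells, led every group, with a mean of 170.0 ± 71.1 FPKM in KO and 253 ± 38.2 FPKM in WT with AP, and 212 ± 39.9 FPKM in KO and 255 ± 24.3 FPKM in WT after sham. Vasp, which extends actin filaments, followed it there. In these levels Actn4 and Vasp in colon overlapped between the genotypes, and neither passed the test with AP (adjusted p = 0.0502 and 0.0746) or after sham (adjusted p = 0.33 and 0.45).

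Among the 7 receptors for collagen and laminin, the lung showed 5 lower and 2 higher in KO with AP, and 5 lower and 1 higher after sham. Itgb1, the beta subunit shared by most matrix receptors, was at 88.5, 68.9, 88.4, 95.5 and 91.6 FPKM in KO lungs with AP and at 194, 199.8, 179.8, 169 and 200.3 FPKM in WT lungs with AP. In sham libraries the level was 93.3, 96.3, 115, 143 and 75.7 FPKM in KO lungs and 173, 181, 191, 212 and 213 FPKM in WT lungs. No KO lung library reached the lowest WT library of its treatment. The log2 differences were -1.12 ± 0.14 with AP and -0.91 ± 0.14 after sham, with adjusted p = 4.12e-06 and 2.18e-05. In the colon, Itgb1 was at 66, 69.3, 105 and 74.3 FPKM in KO and 97.2, 78.1, 84.6, 61.7 and 68.1 FPKM in WT with AP. The sham values were 97.8, 78.7, 115, 67.5 and 78.7 FPKM in KO colons and 74.7, 104, 81.3, 68.7 and 88.2 FPKM in WT colons. These colon groups overlapped, and the differences of 0.0073 ± 0.18, adjusted p = 0.983, with AP and 0.060 ± 0.17, adjusted p = 0.816, after sham did not pass and changed sign on a TPM scale. Whether the Itgb1 difference between the genotypes differed between lung and colon was not tested, because the tables were made separately.

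Itga6, the alpha subunit of the laminin receptors of epithelium and endothelium, was at 2.13, 2.59, 3.09, 32.7 and 3.97 FPKM in KO lungs with AP, against 34, 67.4, 52.3, 36.4 and 49.9 FPKM in WT lungs. Sham libraries had it at 3.14, 3.58, 6.69, 8.0 and 39.5 FPKM in KO lungs, against 25.9, 62.7, 54.8, 81.5 and 89.6 FPKM in WT lungs. One KO library of each treatment, replicate 4 with AP and replicate 5 after sham, stood within or near the WT range, and the other 8 were at or below 8.0 FPKM. The log2 differences were -2.99 ± 0.60, adjusted p = 0.000382, with AP and -2.74 ± 0.60, adjusted p = 0.000681, after sham. Without KO AP replicate 4 the first was -3.61, adjusted p = 1.85e-05. In the colon, Itga6 was at 13.1, 6.72, 13.2 and 4.46 FPKM in KO with AP, against 70.9, 60.2, 54.3, 84.2 and 21.7 FPKM in WT with AP. After sham it was at 6.71, 8.47, 59.5, 52.3 and 90.2 FPKM in KO colons, against 67.4, 65.2, 65, 52.6 and 70.5 FPKM in WT colons. All KO libraries with AP lay below all WT libraries with AP (-2.5 ± 0.60, adjusted p = 0.00931), while the KO sham libraries spread on both sides of the WT sham range (-1.15 ± 0.57, adjusted p = 0.133).

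Itgb4, which pairs with Itga6 to form the hemidesmosomal integrin of epithelial cells, was higher in KO lung in both comparisons on FPKM. It was at 13.3, 7.8, 9.1, 7.44 and 10.3 FPKM in KO and 5.63, 4.79, 6.75, 4.99 and 4.95 FPKM in WT with AP, and at 20.5, 11.9, 8.11, 4.95 and 5.74 FPKM in KO and 5.55, 5.24, 5.11, 4.7 and 4.74 FPKM in WT after sham. The KO libraries lay above all WT libraries with AP, and after sham the KO range was wider than, and overlapped, the WT range. The log2 differences were 0.70 ± 0.25, adjusted p = 0.0206, with AP and 0.73 ± 0.25, adjusted p = 0.016, after sham. Without KO AP replicate 1 the value with AP was 0.59, adjusted p = 0.0624. On a TPM scale the values were 0.55, adjusted p = 0.115, with AP and 0.51, adjusted p = 0.138, after sham, and with only the sham groups in the fit the second was 0.73, adjusted p = 0.0534. Of all lung genes, 27.6% were higher with AP and 28.8% after sham. The 10 epithelial markers were all higher in KO lung in both comparisons. Their summed level was 1193 to 2327 FPKM in KO and 475 to 583 FPKM in WT with AP. After sham it was 791 to 3601 FPKM in KO and 469.9 to 597 FPKM in WT. None of them was at 0 in every library, and their part in the Itgb4 result was not tested. In tissue RNA, fewer cells of a type and less RNA per cell cannot be told apart.

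Itga7, the laminin receptor subunit of muscle, was at 11.7, 8.18, 13.7, 9.02 and 9.49 FPKM in KO lungs with AP, against 5.15, 6.08, 6.73, 5.56 and 4.87 FPKM in WT lungs (0.76 ± 0.16, adjusted p = 0.000701). In sham libraries the level was 13.5, 10.3, 6.4, 7.78 and 7.78 FPKM in KO lungs and 8.85, 9.26, 6.78, 6.87 and 7.2 FPKM in WT lungs, which overlapped (0.18 ± 0.16, adjusted p = 0.364). In the colon it was at 5.14, 13.8, 12.8 and 11.6 FPKM in KO with AP and 8.35, 4.07, 5.71, 6.12 and 3.5 FPKM in WT with AP (0.83 ± 0.26, adjusted p = 0.0344). The lung values with AP did not overlap, whereas those of the colon did. The colon call was lost without WT AP replicate 2, 3 or 5 or KO AP replicate 3, 4 or 5, with adjusted p up to 0.109, and on a TPM scale (adjusted p = 0.0921). In the colon 7 of 10 smooth muscle markers were higher in KO with AP and none lower, against 7.37% and 10.9% of all colon genes. The summed level of these markers there was 1871 to 3518 FPKM in KO and 349.6 to 2073 FPKM in WT. In the lung 5 of 10 were higher and 2 lower with AP, against 27.6% and 28.1% of all lung genes. The lung sums were 356 to 762 FPKM in KO and 262 to 384 FPKM in WT, and no marker was at 0 in every library. Striated muscle markers summed to 133 to 5866 FPKM in KO lung and 185 to 459 FPKM in WT lung with AP, with 1 of 7 tested higher and 1 lower. In colon with AP they summed to 19.3 to 27 FPKM in KO and 15.2 to 23 FPKM in WT, with 1 of 5 higher and 1 lower. Neuron and glia markers, fixed for the enteric nervous system, summed to 46.1 to 219 FPKM in KO lung and 6.93 to 11.6 FPKM in WT lung with AP, which did not overlap, with 2 of 4 tested higher and 1 lower. The largest part of this lung sum was the single gene Uchl1, with a mean of 96.3 FPKM in KO and 4.2 FPKM in WT, so the sum says little of the other listed genes. In colon with AP the sums were 30.1 to 124 FPKM in KO and 25 to 60.5 FPKM in WT, with 4 of 10 higher and none lower. The part of these cells in the Itga7 result was not tested. Itga1 and Itga2, the collagen receptor subunits, and Itga3, a laminin receptor subunit, were lower in KO lung in both comparisons. Their log2 differences with AP were -1.14 ± 0.21, -1.05 ± 0.16 and -0.55 ± 0.11 and after sham -1.12 ± 0.21, -0.74 ± 0.16 and -0.47 ± 0.11, with adjusted p at or below 0.00141. None of these 3 genes passed in the colon.

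**Figure D2:**
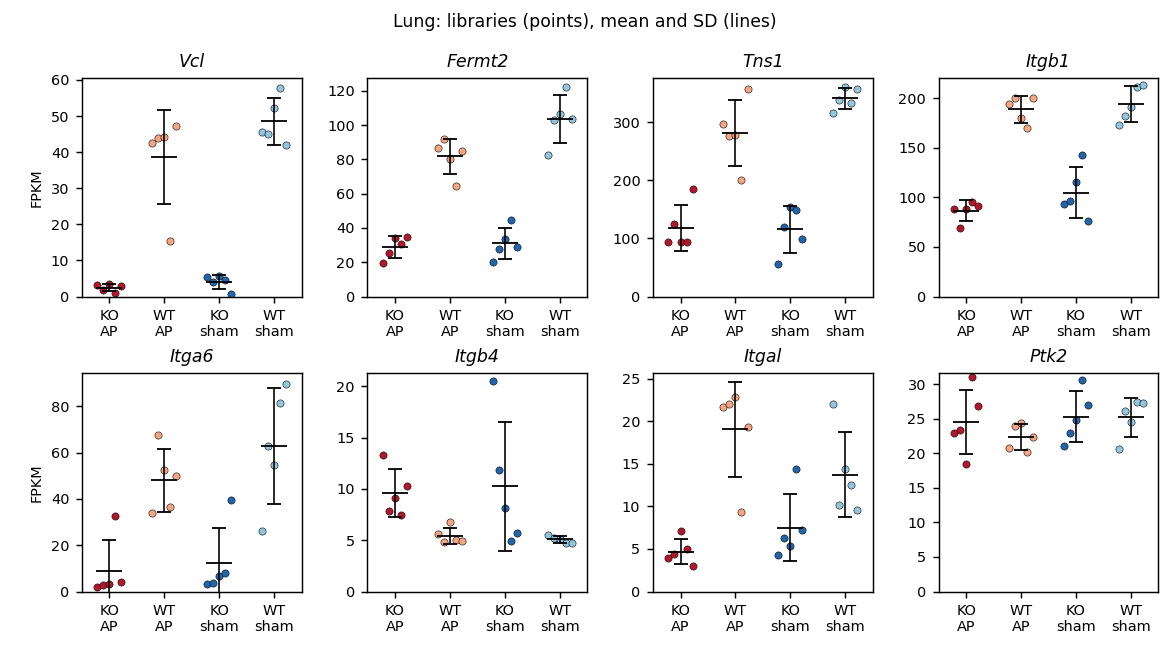
FPKM of Vcl, Fermt2, Tns1, Itgb1, Itga6, Itgb4, Itgal and Ptk2 in each of the 20 lung libraries, with group means and SD. For Vcl, Fermt2 and Itgb1 the KO points lie below every WT point of the same treatment, Itgb4 is higher in KO on this scale, and for Ptk2 the groups overlap.

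Among the 6 tested receptors for RGD proteins, Itga8, Itgb3 and Itgb5 were lower in KO lung in both comparisons. Itga8, a fibronectin and nephronectin receptor subunit of lung mesenchyme, averaged 9.15 ± 1.77 FPKM in KO and 29.1 ± 3.9 FPKM in WT with AP (-1.58 ± 0.27, adjusted p = 8.22e-05), and 12.8 ± 6.84 FPKM in KO and 33.4 ± 6.69 FPKM in WT after sham (-1.47 ± 0.27, adjusted p = 0.000127). Itgb3, best known from platelets and endothelium, and Itgb5 differed by -0.74 ± 0.18 and -0.91 ± 0.17 with AP and by -0.69 ± 0.18 and -0.70 ± 0.17 after sham. Itga5, the fibronectin receptor subunit, and Itgav, the shared alpha subunit of RGD receptors, did not pass in the lung, with -0.11 ± 0.18 and -0.28 ± 0.16 with AP. Of all lung genes, 28.1% were lower with AP and 30.0% after sham. Fibroblast markers were lower for 6 of 10 genes with AP and, at the share of all genes, for 3 after sham, where 1 was higher. Their summed level was 189 to 264 FPKM in KO and 386 to 525 FPKM in WT with AP, and 234 to 400.0 FPKM in KO and 404 to 548 FPKM in WT after sham. Their part in the Itga8 result was not tested.

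Itgb6, an epithelial subunit that pairs with Itgav and activates latent TGF-beta, was at 8.12, 6.5, 5.73, 7.51 and 8.18 FPKM in KO lungs after sham, against 5.05, 3.67, 4.33, 5.49 and 4.56 FPKM in WT lungs. With AP it was at 5.28, 4.83, 4.33, 4.96 and 3.36 FPKM in KO lungs and 4.47, 6.05, 5.38, 7.19 and 3.97 FPKM in WT lungs. All KO sham libraries lay above all WT sham libraries (0.55 ± 0.14, adjusted p = 0.00276), and the groups with AP overlapped (-0.20 ± 0.14, adjusted p = 0.248). On a TPM scale the value after sham was 0.33, adjusted p = 0.0592. The epithelial markers given with Itgb4 were higher in both comparisons. In the colon, Itga5 was the gene of this role that passed, after sham. It was at 19.4, 13, 25.2, 36.5 and 43 FPKM in KO and 18.4, 10.6, 14.2, 13.1 and 14.4 FPKM in WT colons after sham (0.81 ± 0.26, adjusted p = 0.0249), and at 12.5, 16.9, 13.8 and 22.8 FPKM in KO and 17.9, 12.5, 21.4, 15.9 and 11.7 FPKM in WT colons with AP (0.051 ± 0.28, adjusted p = 0.92). The sham groups overlapped, and the call was lost without KO sham replicate 4 or 5 or WT sham replicate 2, with adjusted p of 0.0691, 0.0682 and 0.0514, and on the TPM scale (adjusted p = 0.148).

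Among the 6 genes of the leukocyte role, which takes in Itga9, the colon showed 4 lower with AP and 5 lower after sham and none higher. In the lung 5 were lower with AP and 3 after sham. Itgal, the alpha subunit of LFA-1 on lymphocytes and other leukocytes, was at 3.98, 4.41, 7.08, 4.97 and 3.04 FPKM in KO lungs with AP, against 21.7, 22, 22.8, 9.38 and 19.4 FPKM in WT lungs. The sham values were 4.29, 6.31, 5.37, 14.4 and 7.24 FPKM in KO lungs, against 22, 10.2, 14.4, 12.5 and 9.56 FPKM in WT lungs. The groups did not overlap with AP (-1.79 ± 0.28, adjusted p = 3.92e-05) and overlapped after sham through KO replicate 4 (-0.84 ± 0.28, adjusted p = 0.0157), where without WT sham replicate 1 the value was -0.66, adjusted p = 0.0536. In the colon, Itgal was at 0.937, 0.818, 0.353 and 1.28 FPKM in KO with AP, against 4.72, 22.1, 14, 2.29 and 10.4 FPKM in WT with AP. Sham libraries had it at 0.854, 0.51, 0.638, 0.958 and 5.85 FPKM in KO colons, against 8.54, 2.68, 9.93, 10.4 and 9.19 FPKM in WT colons. With AP the groups did not overlap, and after sham KO replicate 5 was above WT replicate 2. The colon log2 differences were -2.38 ± 0.51, adjusted p = 0.00509, with AP and -1.9 ± 0.48, adjusted p = 0.00707, after sham.

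Itgb7, which with Itga4 forms the gut-homing receptor and with Itgae the receptor that holds lymphocytes in the epithelium, was at 1.62, 2.0, 0.893 and 3.65 FPKM in KO colons with AP, against 7.17, 20.5, 14.7, 4.5 and 18.2 FPKM in WT colons. After sham it was at 2.26, 0.826, 1.32, 2.2 and 12.5 FPKM in KO colons, against 9.35, 3.45, 11.2, 11.4 and 6.56 FPKM in WT colons. As for Itgal, KO sham replicate 5 stood above the other KO sham colons. The differences were -2.1 ± 0.51, adjusted p = 0.00967, with AP and -1.29 ± 0.48, adjusted p = 0.0481, after sham. The call after sham was lost in 14 of the 19 fits that left out 1 colon library, with the highest adjusted p without KO sham replicate 2 (-1.05, adjusted p = 0.128). It held without WT AP replicate 2 or 4, KO AP replicate 5, KO sham replicate 5 or WT sham replicate 2. In the lung, Itgb7 averaged 10.1 ± 2.95 FPKM in KO and 18 ± 4.87 FPKM in WT with AP (-0.77 ± 0.27, adjusted p = 0.0223). That call was lost without WT AP replicate 2, KO AP replicate 4 or KO AP replicate 5 (adjusted p = 0.0646, 0.055 and 0.0644), and after sham the difference was 0.042 ± 0.27, adjusted p = 0.906.

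Itga4, the partner of Itgb7 and Itgb1 on lymphocytes and monocytes, was at 1.4, 1.3, 1.92, 1.5 and 0.822 FPKM in KO lungs with AP, against 7.22, 10.4, 8.5, 3.22 and 8.02 FPKM in WT lungs (-1.77 ± 0.26, adjusted p = 2.36e-05). In sham libraries the level was 0.80, 1.54, 1.22, 4.36 and 2.1 FPKM in KO lungs, against 7.92, 4.69, 5.6, 5.06 and 4.41 FPKM in WT lungs (-1.2 ± 0.26, adjusted p = 0.000702). Neither comparison overlapped. In the colon it differed by -0.97 ± 0.27, adjusted p = 0.0201, with AP and -1.01 ± 0.26, adjusted p = 0.00717, after sham, and the call with AP was lost without WT AP replicate 2 or 3 or KO AP replicate 3 (adjusted p = 0.0582, 0.0542 and 0.0563). Itgax, the CD11c subunit of dendritic cells and alveolar macrophages, was at 3.65, 1.52, 1.18, 2.23 and 5.27 FPKM in KO colons after sham, against 8.4, 2.98, 10.5, 9.55 and 9.15 FPKM in WT colons (-1.29 ± 0.40, adjusted p = 0.0196). The groups overlapped through WT sham replicate 2, and the call was lost without KO sham replicate 2 or 3 or WT sham replicate 3 (adjusted p = 0.051, 0.0534 and 0.0524). With AP the colon difference was -1.4 ± 0.42, adjusted p = 0.028, lost without WT AP replicate 2 or 3 or KO AP replicate 1 or 4, with adjusted p up to 0.0828. In the lung Itgax was lower with AP (-1.29 ± 0.20, adjusted p = 3.92e-05) and did not pass after sham (-0.28 ± 0.20, adjusted p = 0.235). Itgae, the alpha E subunit of intraepithelial lymphocytes, was lower in KO colon after sham (-1.25 ± 0.28, adjusted p = 0.00357) and at -0.87 ± 0.30, adjusted p = 0.0528, with AP. Itga9, a receptor subunit for tenascin and other matrix proteins, was lower in KO lung (-1.18 ± 0.16 with AP and -0.90 ± 0.16 after sham) and did not pass in the colon.

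Part of the general leukocyte markers were lower in KO too. In the lung 13 of 19 tested markers were lower in KO with AP and 7 after sham, against 28.1% and 30.0% of all lung genes. The lung count after sham was near that share. In the colon 9 of 18 markers were lower with AP and 10 after sham, against 10.9% and 15.4% of all colon genes. No marker was higher in any of these comparisons. Their summed level in lung was 1433 to 3508 FPKM in KO and 4292 to 4879.9 FPKM in WT with AP, and 1081 to 6414 FPKM in KO and 3862 to 4659 FPKM in WT after sham. In colon it was 70.8 to 245 FPKM in KO and 180.3 to 654 FPKM in WT with AP, and 66.1 to 444 FPKM in KO and 248 to 374 FPKM in WT after sham. The lung groups with AP did not overlap in this sum and the other groups did. Lyz2 was the largest part of the lung sum with AP, with a mean of 1542 FPKM in KO and 3672 FPKM in WT. No leukocyte marker was at 0 in every library of a tissue, and the part of the leukocyte content in the integrin results was not tested. Itgb2, the beta subunit that pairs with Itgal and Itgax, differed by -2.24 ± 0.54, adjusted p = 0.00957, in colon with AP, and by -2.06 ± 0.31, adjusted p = 2.67e-05, in lung with AP.

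**Figure D3:**
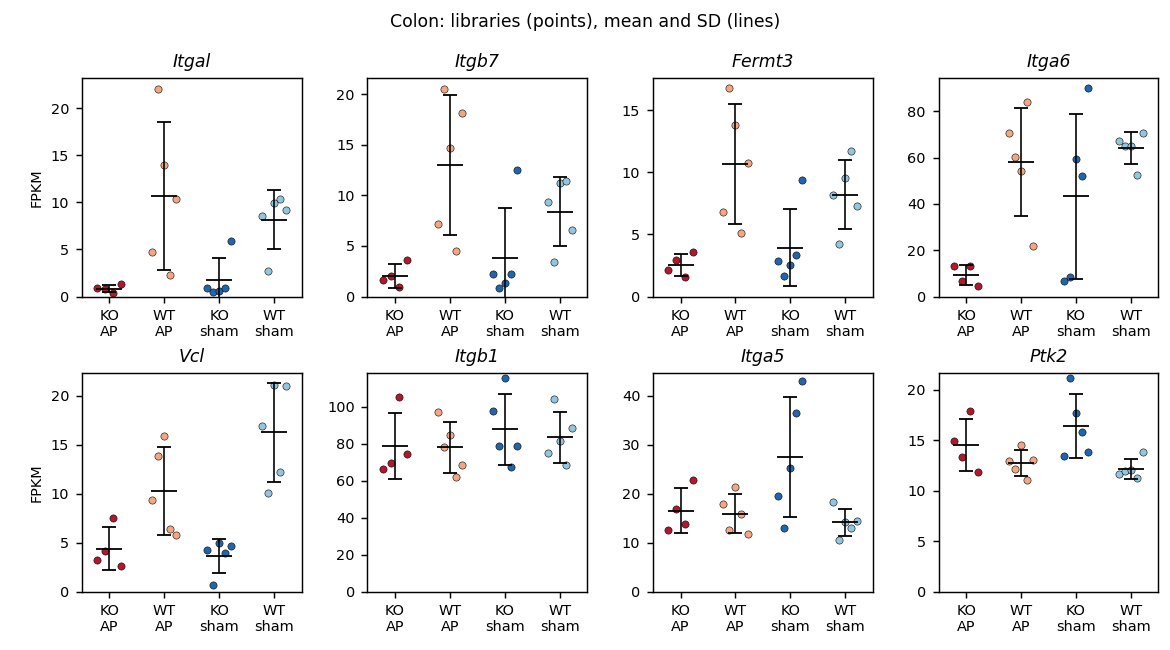
FPKM of Itgal, Itgb7, Fermt3, Itga6, Vcl, Itgb1, Itga5 and Ptk2 in each of the 19 colon libraries, with group means and SD. KO libraries with AP lie below all WT libraries with AP for Itgal, Itgb7, Fermt3 and Itga6, KO sham replicate 5 stands above its group for Itgal, Itgb7 and Fermt3, and Itgb1 overlaps between all groups.

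All 4 integrin activators were lower in KO lung with AP and 3 after sham. Fermt2, kindlin-2 of epithelium, endothelium and mesenchyme, was at 19.8, 25.1, 34.3, 30.7 and 34.8 FPKM in KO lungs with AP, against 86.8, 92.1, 80.4, 64.7 and 84.6 FPKM in WT lungs. The sham values were 20.2, 27.9, 33.8, 44.7 and 28.7 FPKM in KO lungs, against 82.7, 103, 107, 122 and 104 FPKM in WT lungs. Every KO library lay below every WT library, and the log2 differences were -1.49 ± 0.18, adjusted p = 3.44e-06, with AP and -1.74 ± 0.18, adjusted p = 4.23e-07, after sham. Tln1, talin-1, which links the beta tail to actin, was at 25.8, 25.3, 32.5, 26.5 and 35.9 FPKM in KO lungs with AP, against 69, 67.8, 69.4, 43.3 and 71.1 FPKM in WT lungs (-1.1 ± 0.17, adjusted p = 3.85e-05). Sham libraries had it at 24.5, 33.9, 36.5, 54.7 and 30.9 FPKM in KO lungs, against 79.1, 70.4, 75.2, 75.8 and 65.2 FPKM in WT lungs (-1.05 ± 0.17, adjusted p = 4.86e-05). Every KO library lay below every WT library of its treatment. Tln2, its paralog, was lower in both comparisons (-0.69 ± 0.12 with AP and -1.07 ± 0.12 after sham).

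In the colon, Fermt2, Tln1 and Tln2 did not pass in either comparison. Tln1 was at 19.2, 23.9, 21.2 and 25.8 FPKM in KO and 25.2, 38.4, 36.7, 21.7 and 26.5 FPKM in WT colons with AP (-0.36 ± 0.19, adjusted p = 0.206). After sham it was at 28.6, 16.8, 25.8, 25.1 and 26.1 FPKM in KO and 28.7, 19.5, 35.1, 32.4 and 33.5 FPKM in WT colons (-0.27 ± 0.18, adjusted p = 0.276). The groups overlapped in both. Fermt3, kindlin-3 of blood cells, was at 2.1, 2.94, 1.59 and 3.62 FPKM in KO colons with AP, against 6.81, 16.8, 13.8, 5.07 and 10.7 FPKM in WT colons (-1.63 ± 0.37, adjusted p = 0.00628). In sham libraries the level was 2.83, 1.63, 2.5, 3.35 and 9.36 FPKM in KO colons, against 8.17, 4.22, 9.49, 11.7 and 7.26 FPKM in WT colons (-1.01 ± 0.34, adjusted p = 0.033). With AP the groups did not overlap, and after sham KO replicate 5 lay within the WT range. The call after sham was lost in 8 of the 19 fits that left out 1 library, with adjusted p up to 0.0931 without KO replicate 2. Those were the fits without KO sham replicate 1, 2, 3 or 4 or WT sham replicate 1, 3, 4 or 5. In the lung Fermt3 was lower with AP (-1.12 ± 0.24, adjusted p = 0.000749) and did not pass after sham (-0.42 ± 0.24, adjusted p = 0.146). The leukocyte markers given above that passed were lower, as Fermt3 was where it passed.

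Of the 7 actin linkers, 4 were lower in KO lung with AP and 5 after sham. Vcl, vinculin, which reinforces the bond between talin and actin under load, had the largest difference of all 37 genes in both lung comparisons. It was at 3.06, 1.71, 3.33, 1.0 and 2.93 FPKM in KO lungs with AP, against 42.5, 44, 44.2, 15.4 and 47.2 FPKM in WT lungs. The sham values were 5.36, 4.1, 5.65, 4.64 and 0.636 FPKM in KO lungs, against 45.5, 45, 52.3, 57.7 and 41.9 FPKM in WT lungs. The highest KO library was below the lowest WT library in both, also with WT AP replicate 4, which was low in its group. The log2 differences were -3.5 ± 0.34, adjusted p = 4.54e-07, with AP and -3.43 ± 0.34, adjusted p = 3.20e-07, after sham. In the colon, Vcl was at 3.18, 4.14, 7.51 and 2.65 FPKM in KO with AP, against 9.3, 13.8, 15.9, 6.41 and 5.76 FPKM in WT with AP (-1.05 ± 0.37, adjusted p = 0.0584). Sham libraries had it at 4.23, 0.626, 4.91, 3.89 and 4.66 FPKM in KO colons, against 16.9, 10.04, 21.1, 12.2 and 21 FPKM in WT colons (-1.97 ± 0.35, adjusted p = 0.000801). The sham groups did not overlap, and those with AP did. The comparison with AP passed without WT AP replicate 4 or 5, KO AP replicate 4 or KO sham replicate 2 (adjusted p = 0.046, 0.046, 0.0343 and 0.0192). Exons of Vcl share bases with those of Ap3m1 on the opposite strand in the annotation used, and the labels do not say whether the libraries keep strand. Itga4, Itga7, Tln1, Zyx, Actn4 and Fermt3 share exon bases with an opposite gene in the same way, and Itga1 with a gene on its own strand.

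Tns1, tensin-1, which binds actin and the tails of beta subunits, was at 56.4, 119, 154, 149 and 99.2 FPKM in KO lungs after sham, against 317, 339, 361, 332 and 358 FPKM in WT lungs. With AP it was at 94.3, 125, 93, 93.8 and 185 FPKM in KO lungs, against 297, 276, 278, 199.6 and 357 FPKM in WT lungs. Every KO library lay below every WT library of its treatment, and the differences were -1.28 ± 0.24, adjusted p = 0.000182, with AP and -1.64 ± 0.24, adjusted p = 1.19e-05, after sham. Tns3, another tensin, was lower in KO lung in both comparisons (-1.16 ± 0.14 with AP and -1.39 ± 0.14 after sham) and in KO colon after sham (-1.05 ± 0.16, adjusted p = 0.000213). Actn4 was lower in KO lung in both (-0.52 ± 0.12 with AP and -0.49 ± 0.12 after sham). Actn1 was at -0.40 ± 0.17, adjusted p = 0.0501, with AP and -0.44 ± 0.17, adjusted p = 0.0292, after sham. The Actn1 call after sham was lost without KO sham replicate 5 or WT sham replicate 3 or 5 (adjusted p = 0.0848, 0.063 and 0.0584). Zyx and Vasp, which regulate actin assembly at adhesions, did not pass in lung or colon.

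Vcl is a target of serum response factor (SRF) in mouse, which binds a DNA element named the CArG box, and the promoters were therefore searched for it. RefSeq gave promoter windows of 300 bases, from 250 before to 50 after the start, in the GRCm38.p6 build for 28 of the 38 members. These 28 genes had 34 windows. A CArG box, whose pattern reads the same on both strands, was in a window of 3 of them, Vcl, Fermt2 and Itgb6. It was in 1.63% of all 32817 windows, a share counted by window and not by gene. The 250 bases before the start are shown for these 3 genes, 5′ to 3′ on the gene's own strand, because Vcl and Fermt2 were among the genes with the largest lung falls and Itgb6 was higher in KO lung after sham. The box is in capitals. It lies 227 to 218 bases before the start in Vcl (chr14:20929148-20929397, plus strand), 204 to 195 bases in Fermt2 (chr14:45530066-45530315, minus strand) and 50 to 41 bases in the second of 2 windows of Itgb6 (chr2:60673694-60673943, minus strand).
Vcl: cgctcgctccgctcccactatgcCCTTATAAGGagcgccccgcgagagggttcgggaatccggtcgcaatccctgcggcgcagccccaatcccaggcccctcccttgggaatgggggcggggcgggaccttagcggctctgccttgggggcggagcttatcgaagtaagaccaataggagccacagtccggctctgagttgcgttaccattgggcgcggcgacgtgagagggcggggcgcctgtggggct
Fermt2: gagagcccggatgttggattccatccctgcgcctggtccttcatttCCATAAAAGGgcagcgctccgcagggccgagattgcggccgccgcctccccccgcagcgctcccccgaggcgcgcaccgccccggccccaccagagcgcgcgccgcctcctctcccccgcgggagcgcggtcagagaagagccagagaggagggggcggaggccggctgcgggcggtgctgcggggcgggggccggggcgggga
Itgb6: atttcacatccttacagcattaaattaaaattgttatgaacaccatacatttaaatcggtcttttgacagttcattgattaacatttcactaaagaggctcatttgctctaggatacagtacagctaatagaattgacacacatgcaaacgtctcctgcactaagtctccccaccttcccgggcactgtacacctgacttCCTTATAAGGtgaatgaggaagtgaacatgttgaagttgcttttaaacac

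These matches are letters in a window and say nothing of binding. The 16 listed actin target genes of SRF and its cofactor MRTF, of which 5 of the 13 with a window held a box, are given for comparison. Of all genes, 27.6% were higher with AP and 28.8% after sham in lung, and 7.37% and 16.0% in colon. In the lung 8 of these targets were higher and 1 lower with AP (median log2 difference 0.55) and 8 higher and 2 lower after sham (0.56). In the colon 6 were higher and 1 lower with AP (0.26) and 10 higher and 1 lower after sham (0.82). Vcl is not in that list, and in both lung comparisons and in colon after sham it was lower where most of the listed targets that passed were higher. Acta2, Tagln and Cnn1 of that list are also smooth muscle markers. The smooth muscle sums had medians of 4984 FPKM in KO and 1091 FPKM in WT colon after sham. The part of smooth muscle and of SRF in these differences was not tested.

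Of the ILK complex, which docks on beta tails and holds parvin and PINCH, Parva was lower in KO lung in both comparisons (-0.46 ± 0.091 with AP and -0.53 ± 0.091 after sham). Ilk, the pseudokinase at its centre, was at 22.9, 26.6, 48.5, 25.8 and 43 FPKM in KO lungs with AP, against 48, 52.1, 48.6, 25.9 and 50.9 FPKM in WT lungs (-0.44 ± 0.24, adjusted p = 0.129). After sham it was at 20.3, 30.3, 30.2, 35.9 and 56.1 FPKM in KO lungs, against 48.4, 51, 54.3, 55.9 and 41.1 FPKM in WT lungs (-0.59 ± 0.24, adjusted p = 0.0443). The groups overlapped in both comparisons, with AP through WT replicate 4 and KO replicate 3 and after sham through KO replicate 5. The call after sham was lost in 9 of the 20 fits that left out 1 library, with adjusted p up to 0.14 without KO sham replicate 1. Those were the fits without WT AP replicate 1 or 3, KO sham replicate 1, 2 or 3 or WT sham replicate 1, 2, 3 or 4. With AP, Ilk passed without WT AP replicate 4 or KO AP replicate 3 (adjusted p = 0.0285 and 0.0464). It also passed on a TPM scale (-0.65, adjusted p = 0.0402), with library weights (-0.67, adjusted p = 0.00141) and without the libraries of low correlation with their group (-0.59, adjusted p = 0.0184). In the colon it was at 13.9, 17.2, 24.3 and 14.9 FPKM in KO and 12.1, 15, 14.8, 9.01 and 7.41 FPKM in WT with AP (0.57 ± 0.28, adjusted p = 0.159). In sham libraries the level was 25.6, 7.66, 20.8, 15.1 and 18.2 FPKM in KO colons and 13.1, 8.9, 15.4, 14.6 and 13.2 FPKM in WT colons (0.32 ± 0.26, adjusted p = 0.361). Both colon comparisons overlapped. Exons of Ilk share bases with Rrp8 and Taf10 on the opposite strand in the annotation used.

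Lims1, PINCH-1, was at 0.315, 16.1, 21.2, 21.6 and 16.3 FPKM in KO lungs with AP, against 35, 35.7, 32.2, 29.1 and 34.9 FPKM in WT lungs (-1.58 ± 0.52, adjusted p = 0.0141). The first KO library stood far below the other 4, and without it the difference was -0.80, adjusted p = 0.000523. With only the AP groups in the fit the adjusted p was 0.0575. After sham the difference was -0.73 ± 0.52, adjusted p = 0.234, although the KO libraries lay below all WT libraries in both comparisons. The sham values were 13.8 to 26.8 FPKM in KO lungs and 31.8 to 39.4 FPKM in WT lungs. Because the fit shares its estimate of spread among all groups, KO AP replicate 1 also widened the standard error after sham.

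None of the 4 signalling genes passed in the lung with AP, and Pxn and Bcar1 were lower after sham. Ptk2, focal adhesion kinase, was at 22.9, 23.4, 18.5, 31 and 26.9 FPKM in KO lungs with AP and 20.8, 24, 24.3, 20.2 and 22.4 FPKM in WT lungs (0.11 ± 0.13, adjusted p = 0.46). The sham values were 21.1, 23, 24.8, 30.6 and 26.9 FPKM in KO lungs and 20.7, 26.1, 24.6, 27.4 and 27.3 FPKM in WT lungs (0.0011 ± 0.13, adjusted p = 0.994). The groups overlapped in both, and the sign changed with the scaling, to -0.086 with AP and -0.27 after sham on a TPM scale. In the colon, Ptk2 was at 13.5, 21.2, 17.7, 15.8 and 13.8 FPKM in KO after sham, against 11.6, 11.9, 12, 11.3 and 13.8 FPKM in WT after sham (0.39 ± 0.13, adjusted p = 0.0271). With AP it was at 14.9, 13.3, 17.9 and 11.9 FPKM in KO colons and 13, 12.1, 14.5, 11.1 and 13.1 FPKM in WT colons (0.16 ± 0.14, adjusted p = 0.421). The sham groups overlapped by WT replicate 5, and those with AP overlapped widely. The call after sham was lost without KO sham replicate 2 or 3 or WT sham replicate 1, 3 or 4, with adjusted p up to 0.0788, and on the TPM scale (adjusted p = 0.287).

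Pxn, paxillin, the scaffold that recruits FAK and vinculin, was at 37.9, 41.6, 35.6 and 34.4 FPKM in KO colons with AP, against 51.9, 63.8, 67.7, 50.2 and 55.3 FPKM in WT colons (-0.61 ± 0.12, adjusted p = 0.00313). Sham libraries had it at 42.3, 34.3, 37.2, 42.4 and 38 FPKM in KO colons, against 59.99, 50.1, 66.5, 66.7 and 67.9 FPKM in WT colons (-0.66 ± 0.11, adjusted p = 0.000584). The groups did not overlap in either comparison. In the lung Pxn was lower after sham (-1.42 ± 0.51, adjusted p = 0.0234). KO sham replicate 5 was at 2.14 FPKM there, with the other 4 KO sham libraries between 37.0 and 56.3 FPKM, and without it the difference was -0.64, adjusted p = 0.000469. With AP the lung difference was -0.57 ± 0.51, adjusted p = 0.355, with 36.5 to 53.3 FPKM in KO and 51.9 to 70.2 FPKM in WT. The fit shares its estimate of spread among all groups of a tissue, so KO sham replicate 5 also widened the standard error with AP. Bcar1, the p130Cas scaffold, was lower in KO lung after sham (-0.22 ± 0.093, adjusted p = 0.0465), a call lost in 15 of the 20 fits without 1 library, with adjusted p up to 0.103 without KO sham replicate 3. It held without KO sham replicate 4, WT AP replicate 4 or any of KO AP replicates 2, 3 and 5. Src, the kinase that phosphorylates FAK, was lower in KO colon after sham (-0.35 ± 0.11, adjusted p = 0.0238), a call lost without KO sham replicate 2 or WT sham replicate 2 or 5 (adjusted p = 0.0544, 0.0516 and 0.0565).

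**Figure D4:**
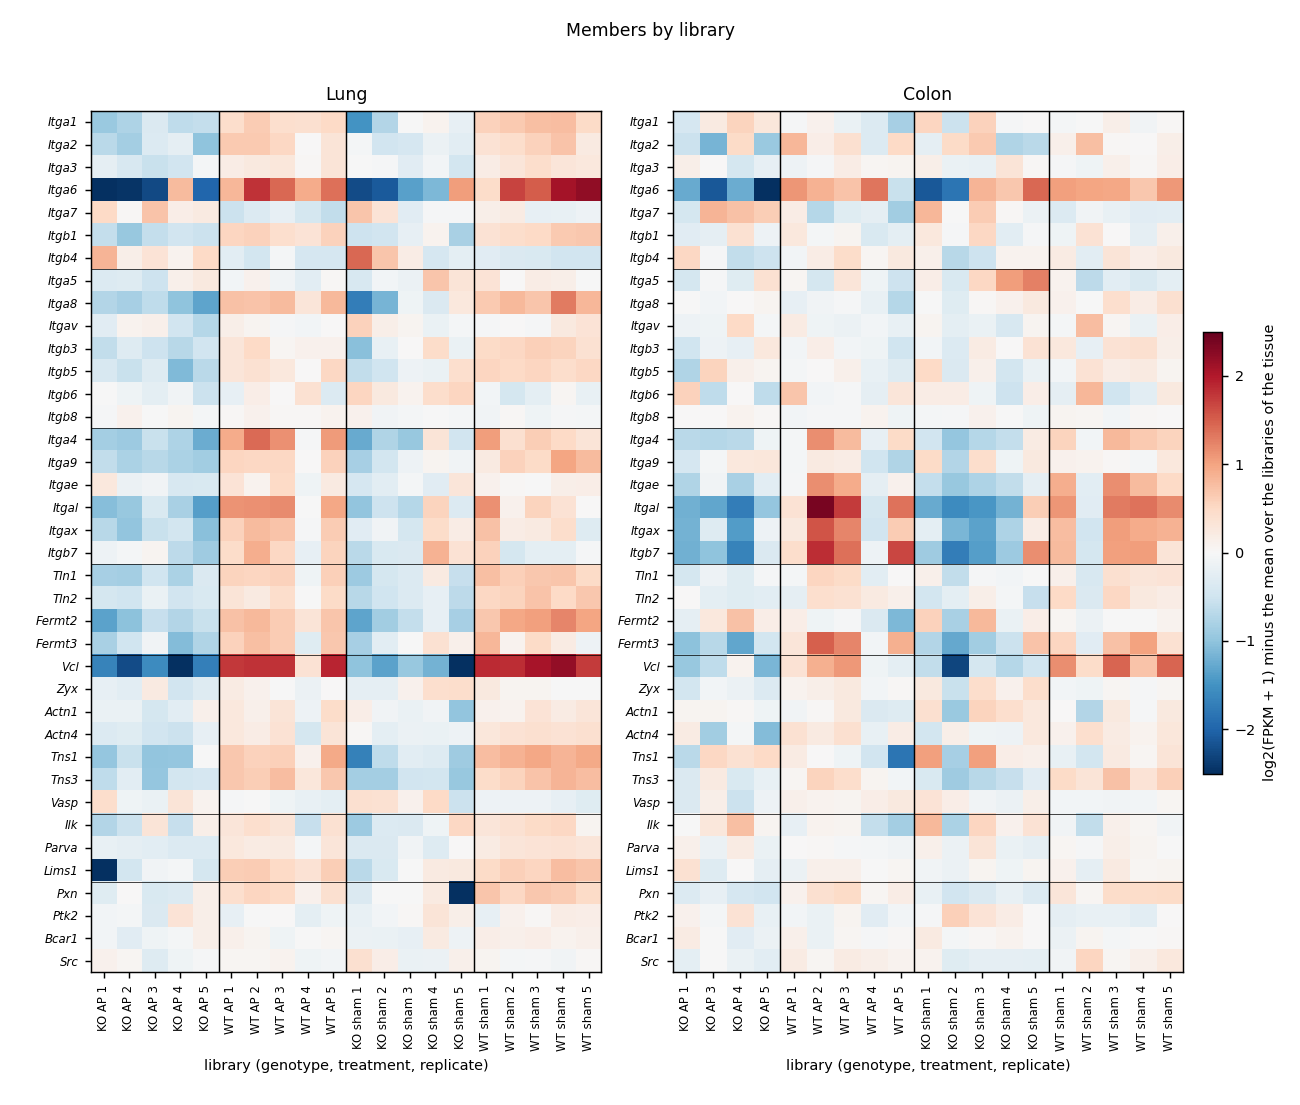
Log2(FPKM + 1) of each gene in each library minus its mean over the libraries of the tissue, in the order KO with AP, WT with AP, KO sham and WT sham, rows grouped by role. In the lung the KO columns are mostly below and the WT columns above the mean for the matrix receptors, activators and linkers, and in the colon the contrast is clearest for the leukocyte rows.

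The AP response was asked of each genotype by comparing AP with sham libraries. With limma, none of the 37 genes passed in either tissue or genotype, and none passed for the difference between the AP responses of KO and WT. Over all genes the shares that passed were 0.0125% in KO lung and 0.0814% in WT lung, 0.0400% in KO colon and 0% in WT colon, and 0% for the difference of responses in both tissues. At an unadjusted p under 0.05 there were 8 of the 37 genes in KO lung and 2 in WT lung, 5 in KO colon and 1 in WT colon, and 6 and 4 for the difference in lung and colon. The corresponding numbers over all genes were 2234 in KO lung and 1066 in WT lung, 2798 in KO colon and 938 in WT colon, and 1384 and 2821 for the difference. The KO against WT comparisons and the AP against sham comparisons share libraries, so their values are not independent. In the fit that weights libraries by their reliability, Itga4, Itga7, Itgal, Itgax, Itgb7 and Tln2 passed in WT lung, where 10.3% of all genes then passed.

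In KO lungs the lowest p belonged to Itgb6, Itgax and Itga9. Itgb6, given above by library, differed by -0.56 ± 0.14, adjusted p = 0.131. Itgax was at 4.34, 3.37, 4.88, 5.3 and 3.2 FPKM with AP, against 6.15, 7.12, 5.37, 10.9 and 8.89 FPKM after sham (-0.72 ± 0.20, adjusted p = 0.175). Both had every KO AP library below every KO sham library, as did 0.376% of all genes. Itga9 was at 6.85, 5.87, 6.36, 5.92 and 5.57 FPKM with AP, against 5.77, 7.73, 9.92, 11.5 and 10.2 FPKM after sham (-0.46 ± 0.16, adjusted p = 0.235), passing without KO sham replicate 1 (-0.60, adjusted p = 0.0498). In WT lungs the lowest p belonged to Tln2, Itga7 and Itgb7. For Tln2 and Itga7 every WT AP library lay below every WT sham library, as for 3.84% of all genes. Tln2 was at 3.42, 3.12, 3.74, 2.47 and 3.91 FPKM with AP, against 4.04, 4.21, 4.75, 4.0 and 4.59 FPKM after sham (-0.30 ± 0.12, adjusted p = 0.602). Itgb7 was at 17.5, 24.4, 18.4, 10.8 and 18.8 FPKM with AP, against 19, 8.95, 10.4, 10.4 and 12.3 FPKM after sham (0.53 ± 0.27, adjusted p = 0.795), and the 2 groups overlapped. Itga7 differed by -0.39 ± 0.16, adjusted p = 0.659. The differences between the lung responses with the lowest p were -0.74 ± 0.20, adjusted p = 0.442, for Itgb6, -1.0 ± 0.29, adjusted p = 0.442, for Itgax and 0.58 ± 0.23, adjusted p = 0.528, for Itga7.

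In KO colons the lowest p belonged to Itga6 (-1.61 ± 0.60, adjusted p = 0.179), Zyx and Tns3. Itga6 passed without KO sham replicate 1 (-2.09, adjusted p = 0.0253). Zyx was at 25.1, 33.1, 31.4 and 27.3 FPKM with AP, against 41.7, 23.3, 47.6, 37.6 and 47.8 FPKM after sham (-0.39 ± 0.16, adjusted p = 0.211). Tns3 was at 8.93, 14, 8.86 and 10.3 FPKM with AP, against 8.9, 5.97, 6.92, 7.58 and 9.61 FPKM after sham (0.39 ± 0.17, adjusted p = 0.223). These groups overlapped. In WT colons the lowest p belonged to Itga8 (-0.46 ± 0.14, adjusted p = 0.791), Itgb3 (-0.31 ± 0.17, adjusted p = 0.804) and Vcl (-0.66 ± 0.35, adjusted p = 0.804). Itga8 was at 0.55, 0.695, 0.765, 0.582 and 0.0995 FPKM with AP and 0.935, 0.781, 1.41, 1.04 and 1.37 FPKM after sham. Itgb3 was at 2.66, 3.25, 2.65, 2.56 and 1.69 FPKM with AP and 3.56, 2.3, 3.93, 4.03 and 3.23 FPKM after sham. All WT AP libraries lay below all WT sham libraries for Itga8, as for 1.09% of all colon genes, and the groups overlapped for Itgb3. Vasp was at 199, 195, 191, 204 and 217 FPKM with AP, against 173, 173, 172, 174 and 189.8 FPKM after sham, so that every WT AP library lay above every WT sham library, as for 1.29% of all colon genes (0.19 ± 0.13, adjusted p = 0.823). The differences between the colon responses with the lowest p were 0.67 ± 0.23, adjusted p = 0.141, for Tns3, -0.49 ± 0.18, adjusted p = 0.174, for Vasp and -0.51 ± 0.22, adjusted p = 0.231, for Zyx.

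Transcript length was examined because the genes of this family are long. The median longest transcript was 4415 nt for the 37 genes, against 2982 nt over the lung genes and 2996 nt over the colon genes with a length, and 34 lung and 33 colon members lay above those medians. Across all lung genes the KO against WT difference fell with length, with a Spearman coefficient of -0.34 with AP and -0.44 after sham, and over the 37 genes it was -0.31 and -0.39. In the colon it was -0.051 with AP and -0.32 after sham over all genes, and 0.065 and -0.16 over the 37 genes. These are descriptions across genes, which are not independent and share the libraries. By length class, the median lung difference with AP over all genes was 0.24 up to 3000 nt, -0.096 from 3001 to 5000 nt, -0.35 from 5001 to 8000 nt and -0.45 above 8000 nt. The medians of the 4, 18, 10 and 5 members in those classes were -0.61, -0.46, -1.10 and -1.14, below all genes of the same class in this comparison. Of them, 2, 8, 8 and 5 were lower, against 16.2%, 32.2%, 51.7% and 59.1% of all genes of the class. After sham the medians of the members were -0.19, -0.36, -0.79 and -1.12, against 0.30, -0.15, -0.46 and -0.57 over all genes. In the colon with AP the medians of the members in these classes were -0.99, -0.11, -0.18 and -0.36, against 0.025, -0.025, -0.074 and -0.032 over all genes. In the colon after sham they were -0.44, -0.020, -0.30 and -0.27, against 0.20, -0.051, -0.27 and -0.30 over all genes, so the members lay above all genes from 3001 to 5000 nt and above 8000 nt.

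After subtraction of the trend with length, 21 members were lower and 3 higher in KO lung with AP, and 17 lower and 4 higher after sham. Over all genes with a length, 25.0% were then lower and 26.0% higher with AP, and 24.8% lower and 25.5% higher after sham. Vcl was then at -3.21 with AP and -3.05 after sham, Itgb1 at -1.03 and -0.78, Fermt2 at -1.48 and -1.72, and Tln1 at -0.67 and -0.49. All these still passed. Ptk2 became higher in KO lung with both treatments (adjusted p = 0.0201 with AP and 0.0385 after sham), and Ilk passed as lower with AP (adjusted p = 0.0422). With AP, Itgb3, Tln2 and Parva no longer passed (adjusted p = 0.054, 0.0919 and 0.327). After sham, Itga2, Itga3, Itgal, Itgb3, Parva and Actn1 no longer passed, with adjusted p from 0.0824 to 0.473. In the colon Src after sham no longer passed (adjusted p = 0.0688), and the corrected counts were 9 lower and 1 higher with AP and 9 lower and 2 higher after sham, against 11.1% lower and 8.45% higher over all colon genes with AP and 12.1% each way after sham.

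**Figure D5:**
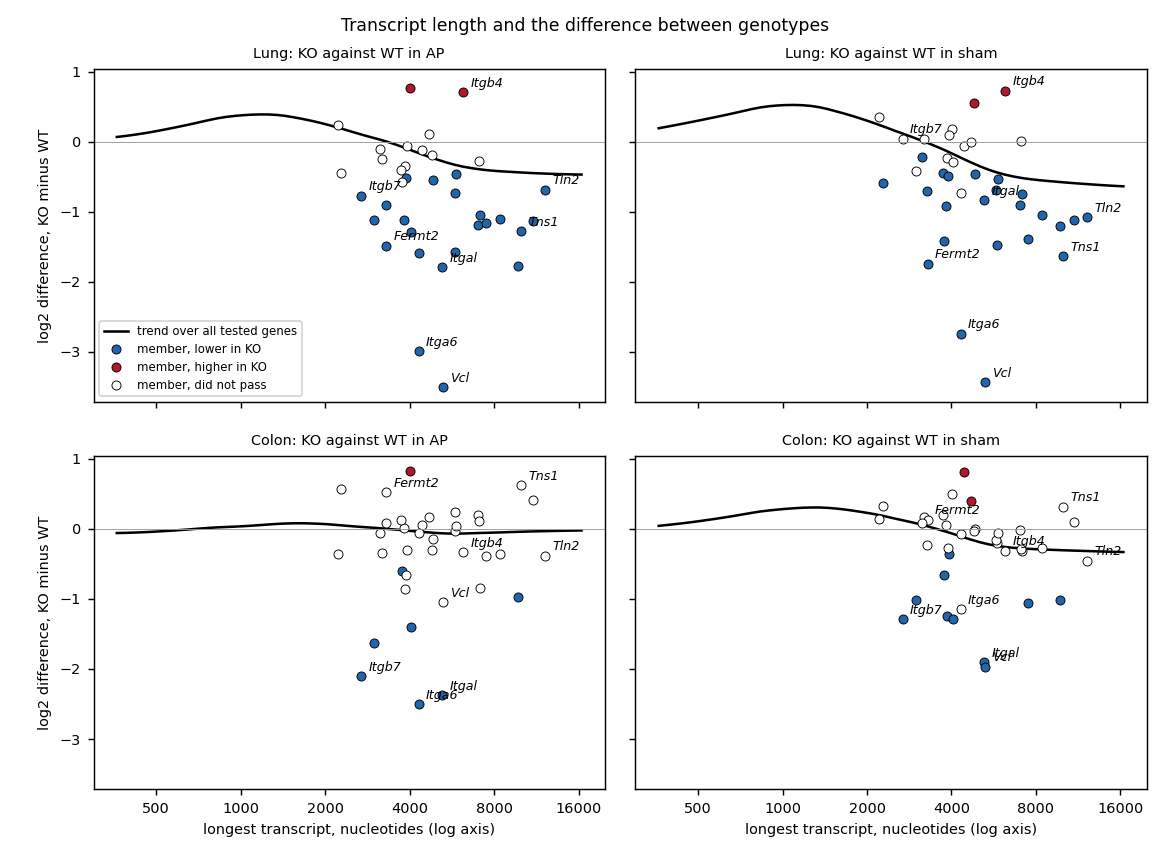
Log2 difference between KO and WT libraries (log2(FPKM + 1)) against the longest annotated transcript (nt, log axis) in lung and colon, with AP and after sham. The line is the trend over all genes tested, blue members are lower, red members higher and open ones did not pass. In the lung panels the line slopes down and most members lie below it.

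The balance of higher and lower genes depended on the scaling of the libraries. On a TPM scale the median of all genes shifted to -0.18 in lung with AP, -0.26 in lung after sham, -0.13 in colon with AP and -0.15 in colon after sham. All lung genes then split into 2965 higher and 5492 lower with AP, against 4412 and 4496 on FPKM, and into 2891 higher and 6209 lower after sham, against 4606 and 4787. All colon genes split into 541 higher and 1762 lower with AP, against 1106 and 1637, and into 1249 higher and 2683 lower after sham, against 2398 and 2306. The members split into 1 higher and 29 lower in lung with AP, 0 higher and 25 lower in lung after sham, 0 higher and 10 lower in colon with AP and 0 higher and 11 lower in colon after sham. Upper quartile scaling gave 0 higher and 11 lower in colon after sham, where 12.9% of all genes were higher and 18.5% lower on that scale.

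The listed integrin ligands are matrix proteins, TGF-beta genes and some cell-surface partners, such as Cdh1, which binds the alpha E subunit, and Icam1, which binds LFA-1. Of all genes, 28.1% were lower with AP and 30.0% after sham in lung, and 10.9% and 15.4% in colon. Of 35 ligand genes tested in lung, 25 were lower and 1 higher in KO with AP (median log2 difference -0.98). After sham 23 were lower and 1 higher (-0.85). The higher gene was Cdh1, at 0.56 ± 0.16, adjusted p = 0.00608, with AP and 0.44 ± 0.16, adjusted p = 0.0252, after sham. Those with the lowest p were in both comparisons Lama3 (-2.64 ± 0.29, adjusted p = 1.20e-06, with AP and -2.55 ± 0.29 after sham), Col4a1 (-2.49 ± 0.28, adjusted p = 1.97e-06, and -2.27 ± 0.28), Nid1 (-1.77 ± 0.20 and -1.89 ± 0.20) and Lamb1 (-1.67 ± 0.19 and -1.56 ± 0.19), which encode laminin chains, a type IV collagen chain and nidogen-1 of basement membranes. In the colon 12 of 34 ligand genes were lower with AP (median -0.49) and 14 after sham (-0.35), and none was higher. Lamb1 was lowest in p with AP (-1.57 ± 0.20, adjusted p = 0.000281), and Lamb3, Lama2 and Lama3 joined it after sham (-1.1 ± 0.18, -0.79 ± 0.18 and -1.74 ± 0.40).

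Of 52 other integrin and adhesion genes, 30 were lower and 3 higher in KO lung with AP (median -0.45) and 28 lower and 4 higher after sham (-0.47). Dst, which encodes a hemidesmosomal plakin, was among those with the lowest p (-2.29 ± 0.26 with AP and -3.07 ± 0.26 after sham). In the colon 14 were lower and 7 higher with AP (median -0.070) and 16 lower and 7 higher after sham (-0.17). The shares over all genes were those given with the ligands, and 7.37% of colon genes were higher with AP and 16.0% after sham. Those with the lowest p with AP were Apbb1ip, Parvg, Itgb2 and Fyn (-0.95 ± 0.21, -1.42 ± 0.32, -2.24 ± 0.54 and -1.27 ± 0.32), the first 3 of which are expressed mainly in blood cells. After sham Dst, Fermt1 and Csrp1 were among those with the lowest p (-1.53 ± 0.25, -0.73 ± 0.13 and 1.45 ± 0.27).

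Of all genes, 28.1% were lower with AP and 30.0% after sham in lung, and 10.9% and 15.4% in colon. Most endothelial markers were lower, as were the basement membrane genes named above. In the lung 6 of 10 were lower and 1 higher in KO in both comparisons, with sums of 947 to 2133 FPKM in KO and 1528 to 1766 FPKM in WT with AP, and 931 to 2266 FPKM in KO and 1789.5 to 1952 FPKM in WT after sham, so these sums overlapped between the genotypes. Their largest part was Egfl7, whose mean was higher in KO, at 844 against 458 FPKM with AP and 823 against 518 FPKM after sham. Single markers could lie apart. With AP, Cdh5 was at 29.0 to 56.4 FPKM in KO and 183 to 241 FPKM in WT, and Pecam1 at 68.8 to 104 and 199 to 264 FPKM, while Cldn5 overlapped. In the colon 8 of 10 were lower with AP and 7 after sham, with sums of 15.9 to 44 FPKM in KO and 39.6 to 52.8 FPKM in WT with AP, and 32.6 to 39.7 FPKM in KO and 47.9 to 59.1 FPKM in WT after sham, where they did not overlap. Colon fibroblast markers were lower for 6 of 10 with AP and 4 after sham, and colon epithelial markers split into 0 higher and 1 lower with AP and 2 higher and 2 lower after sham. None of these genes was at 0 in every library of its tissue, and their part in the integrin results was not tested.

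Some libraries were the lowest of their group for many members. In lung, WT AP replicate 4 was the lowest of its group for 30 of the 37 members, against 34.6% of all genes. Mitochondrial genes made up 11.4% of its summed FPKM, and limma's estimate of library reliability gave it a weight of 0.419. Without it, 28 members passed for KO against WT in lung with AP, and the share over all genes in that fit is not given here. KO sham replicate 1 was the lowest of its group for 21 members, against 24.8% of all genes. In colon, KO sham replicate 2 and WT sham replicate 2 were each the lowest of their groups for 23 members, against 23.6% and 39.0% of all genes. The SD of log2 values was larger in KO than in WT for 24 of the 37 genes in lung with AP and 35 in lung after sham, against 74.5% and 87.2% of all genes. In colon it was larger in KO for 20 genes with AP and 29 after sham, against 72.2% and 70.0% of all genes.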

How the data were processed

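Expression was measured by sequencing mRNA of lung and colon tissue. Per the labels' protocols, Trizol was used to extract RNA, from which mRNA was enriched, fragmented and sequenced on an Illumina instrument. The submitters' processing notes list the mouse build mm39 and the programs StringTie 1.3.3b and HISAT2 2.1.0. The annotation, the strand setting and read filters are not stated. The authors deposited FPKM, 1 table per tissue with 1 column per library. Values of single-transcript genes stepped in whole reads, which gave the library totals. Among those of these genes with few reads, 98.6% to 99.1% lay within 0.01 read of a whole number. Counts of genes with several transcripts, as the members are, were not recovered, so no count test was run.

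The test covered genes that reached 1 FPKM in 4 or more libraries of the tissue, 15978 for lung and 15001 for colon. A linear model with 1 mean per group was fitted to log2(FPKM + 1) with limma 3.58.1 in R 4.3.3, with variances that follow the expression level and Benjamini-Hochberg adjustment over all genes tested. The 5 comparisons per tissue were KO against WT with AP and after sham, AP against sham in KO and in WT, and the difference between those responses. Other steps used Python 3.11.15, pandas 2.3.3 and numpy 2.4.6. Transcript lengths came from GENCODE and promoters from RefSeq, both of the older mouse build GRCm38, matched by gene ID and symbol.

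The members, roles and lists (ligands, other adhesion genes, SRF targets, leukocyte, epithelial, endothelial, fibroblast, smooth muscle, striated muscle, neuron and glia, lung-defining and colon-defining markers) were chosen with earlier results of these data known. Values by library were given for Itgb1, Vcl, Tln1, Ptk2 and Ilk and, per comparison, for up to 4 members with the largest rise and 4 with the largest fall among those that passed and averaged 2 FPKM or more in either group. Where fewer than 3 passed, the 3 with the lowest p were given, and each list gave up to 4 genes with the lowest p, of which some are not reported here. Itga8, Lims1, Itgae, Pxn and other members given outside this rule were named within their role. The model was tested on simulated libraries for KO against WT with AP. At a log2 change of 1 it recovered 89% of 100 changed genes among 15978 in lung and 68% of 100 among 15001 in colon, with 12 and 8 false calls over all changes simulated. The simulation changed only genes of a higher mean level and gave every group the same normal spread. Its recovery therefore does not cover members at low FPKM or the wider spread of the KO libraries. Alternatives covered the pseudocount, the filter, TPM and upper quartile scaling, a correction for the trend with transcript length, a replicate block, library weights and the omission of libraries.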

Additional observations from a re-analysis of the deposited data

Results flagged for a closer look

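In 29 of 296 groups of 4 or 5 libraries, 14 of 148 in lung and 15 of 148 in colon, 1 library stood far from the others by the gap between them (Dixon's test at 95%). These groups cover every member tested. For independent, normally distributed values the test flags about 1 group in 20. These are raw FPKM, the members share the libraries, and the flagged share over all genes was not counted. The number flagged is therefore not compared with that rate. Lung WT AP replicate 4 was the lowest of its group for Itga8 (22.3 FPKM, with the others between 29.9 and 31.9), Itga9 (11.1 FPKM, others 16.1 to 16.7), Itgal (9.38 FPKM, others 19.4 to 22.8), Vcl (15.4 FPKM, others 42.5 to 47.2), Tln1 (43.3 FPKM, others 67.8 to 71.1), Ilk (25.9 FPKM, others 48.0 to 52.1), Actn4 (65.7 FPKM, others 102 to 115) and Fermt3 (7.32 FPKM, others 14.3 to 16.3). In lung Itga6 it was KO AP replicate 4 (32.7 FPKM, others 2.13 to 3.97) and KO sham replicate 5 (39.5 FPKM, others 3.14 to 8.0), both high. Lung Itgb1 was low in KO AP replicate 2 (68.9 FPKM, others 88.4 to 95.5), and lung Lims1 in KO AP replicate 1 (0.315 FPKM, others 16.1 to 21.6). Lung Bcar1 was high in KO sham replicate 4 (18.7 FPKM, others 13.7 to 14.4), and lung Itga8 in WT sham replicate 4 (45.1 FPKM, others 28.6 to 32.3).

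In colon, KO sham replicate 5 was high for Itgal (5.85 FPKM, others 0.510 to 0.958), Itgb7 (12.5 FPKM, others 0.826 to 2.26) and Fermt3 (9.36 FPKM, others 1.63 to 3.35). WT sham replicate 2 was low for Itgal (2.68 FPKM, others 8.54 to 10.4) and Itgax (2.98 FPKM, others 8.40 to 10.5), and high for Itga2 (6.10 FPKM, others 3.23 to 3.67) and Itgav (9.71 FPKM, others 4.61 to 6.05). KO sham replicate 2 was low for Vcl (0.626 FPKM, others 3.89 to 4.91) and Actn1 (22.4 FPKM, others 52.5 to 64.0), and KO sham replicate 1 was high for Src (43.0 FPKM, others 32.6 to 34.6). WT sham replicate 5 was high for Vasp (189.8 FPKM, others 172.1 to 174.3). With AP, Itga4 was high in KO replicate 5 (1.64 FPKM, others 0.741 to 0.787), Itgav in KO replicate 4 (7.86 FPKM, others 4.81 to 5.09) and in WT replicate 1 (6.25 FPKM, others 4.56 to 5.02), and Tns1 was low in KO replicate 1 (14.5 FPKM, others 31.2 to 34.7). What set these libraries apart was not tested.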

How the results depend on the processing

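The number of members that passed stayed within 1.5 times the reported count in 103 of 108 alternatives that kept all or most libraries. It did so in 191 of 195 that left out 1 library. A count of 0 that stayed at 0 was included. No member had passed for AP against sham or for the difference of responses. The number over all genes stayed within the same bound in 76 of 108 and 154 of 195. With library weights, 6 members passed for AP against sham in WT lung, 1 for the difference of the lung responses, 1 for AP against sham in KO colon and 3 for the difference of the colon responses, where none had passed. Without the libraries of a correlation under 0.94 with their group, 1 passed for AP against sham in KO colon. Leaving out 1 library gave 24 to 28 members for KO against WT in lung with AP, 22 to 25 in lung after sham, 5 to 12 in colon with AP and 8 to 12 in colon after sham. The 5 came without WT AP replicate 2 or WT AP replicate 3. It gave 0 to 2 for AP against sham in KO lung and 0 to 1 in KO colon, the highest without KO sham replicate 1 in each tissue. The cause was not tested. The numbers over all genes in each fit without 1 library are not given here, so these ranges describe the members alone. Over all genes, 4360 passed for KO against WT in colon with AP with library weights, against 2743, and 3009 in colon after sham with block and length correction, against 4704. For AP against sham the weights gave 15 in KO lung, 1640 in WT lung, 1026 in KO colon and 4 in WT colon, against 2, 13, 6 and 0, and for the difference of responses 307 in lung and 1884 in colon, against 0. Without the libraries of low correlation the numbers were 31 in KO lung, 35 in WT lung and 642 in KO colon, and 1 and 250 for the difference in lung and colon.

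For single members, 1336 of 1435 values under other settings kept direction and side of the threshold, 65 lost and 18 gained the call, and 16 changed sign. Without 1 library, 2469 of 2567 kept both, 81 lost and 8 gained the call, and 9 changed sign. The libraries left out together by name were chosen after the data were seen. All changes of sign were in values that had not passed. Ptk2 in lung with AP was -0.086 on a TPM scale and -0.0079 without KO AP replicate 4 and WT AP replicate 4. Ptk2 in lung after sham was -0.27 on a TPM scale, -0.038 with upper quartile scaling, -0.084 with library weights, -0.12 without the libraries of low correlation and -0.12 without KO sham replicates 4 and 5. Itgb1 in colon with AP was -0.12 on a TPM scale, -0.040 with weights, -0.099 without the libraries of low correlation and -0.16 without WT AP replicates 4 and 5. Ptk2 in colon with AP was -0.013 without the libraries of low correlation. Itgb1 in colon after sham was -0.12 on a TPM scale and -0.033 with upper quartile scaling, and Tln1 in colon after sham was 0.024 after the length correction, with or without the block. Without 1 library, Ptk2 in lung after sham ranged between -0.068 and 0.061, Itgb1 in colon with AP between -0.14 and 0.090 and Itgb1 in colon after sham between -0.045 and 0.15.

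Same-numbered libraries did not deviate together, with correlations from -0.32 to 0.39 over 30 lung pairs and from -0.52 to 0.47 over 27 colon pairs, so the numbers were not taken as pairs. With a replicate block, 25 members passed in lung with AP, 25 in lung after sham, 7 in colon with AP and 10 in colon after sham. With the block and the length correction the counts were 24, 19, 7 and 10. The shares over all genes in these fits are not given beside them, so these counts do not set the members apart from other genes. For the difference of responses, a fit with only the groups compared holds all groups and was not run apart. Low values, several transcripts per gene and exons shared with another gene, in 13 of the 38 members, limit these FPKM. The depth per gene is unknown.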
